A study of Mus musculus with 21 samples.

Results

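Matricellular proteins are secreted into the extracellular matrix, where they regulate how cells respond to it more than they hold the tissue together. They bind collagen, growth factors and cell surface receptors such as integrins, and they are best known in skin for their part in wound repair and fibrosis, in which dermal fibroblasts make most of them. Several, Ccn1 and Ccn2 among them, are classical targets of TGF-beta signaling or of the YAP/TAZ-TEAD transcription factors, which respond to mechanical tension in the cell.

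The 10 genes of this group that were followed were Ccn1 (older symbol Cyr61), Ccn2 (Ctgf), Thbs1, Thbs2, Sparc, Tnc, Postn, Smoc2, Tgfbi and Fn1. Fibronectin, the product of Fn1, is a structural glycoprotein of the matrix and was kept with the group that binds it. The members were chosen by name, as the probe sets annotated to 1 of these genes alone. This gave 24 probe sets of 45101 on the array, all 24 of which were among the 40540 that passed the intensity filter. Of the members, 8 have more than 1 probe set, and the brightest of a gene's probe sets, by its mean over all arrays, stands for the gene. All values are log2 intensity. Intensities of different probe sets depend on the probes and were not compared with each other.

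The RNA came from skin of female albino mice of the hairless strain Hos:HR-1, received at 6 weeks of age and acclimated for 1 week. The 2 control groups were not irradiated and were sampled at week 1 and week 8. The other 5 groups were exposed to a UV lamp 3 times per week and sampled at week 1, 2, 4, 6 or 8. Their dose rose each week by 1 minimal erythemal dose (100 mJ/cm2) up to 4 minimal erythemal doses. Each of the 7 groups has 3 arrays, which the submitters describe as 3 animals per group, although the Methods speak of fewer groups than the labels give. All groups, controls included, are of this strain, which lacks a normal coat. The question of the comparisons was how repeated UV exposure changed the RNA of skin over the weeks in which wrinkles form, with the week 8 controls serving to separate exposure from the time that passed.

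The arrays were read as whole skin. All 8 suprabasal keratinocyte, all 8 basal keratinocyte and all 11 dermal fibroblast markers lay above the median of their array on every array, as did all 9 skeletal muscle markers. In whole tissue, fewer cells of a type and less RNA per cell cannot be told apart. Arrays of the same group correlated at r = 0.962 to 0.996 over 21 pairs. The beta-actin 3'/5' log2 ratio, a measure of RNA quality in which a high value goes with degraded RNA, ranged from 2.26 to 5.14 and exceeded 4 on 8 of the 21 arrays. These were array 12 of control week 1, arrays 112 and 114 of UV week 1, array 333 of UV week 4, arrays 441 and 445 of UV week 6 and arrays 552 and 555 of UV week 8.

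Several matricellular genes passed as lower in skin after 6 and 8 weeks of UV exposure, and none passed the test after 1, 2 or 4 weeks. The members' median log2 fold change was nonetheless -0.54 at UV week 1, 0.07 at week 2 and -0.57 at week 4. That of all tested probe sets was 0.07, 0 and 0.04. At UV week 6, Ccn1, Thbs1, Sparc, Smoc2 and Fn1 fell against control week 1, each by more than 2-fold. At UV week 8, Ccn1, Ccn2, Sparc, Smoc2 and Fn1 fell, from 1.69-fold for Ccn2 to 3.23-fold for Ccn1. Against the age-matched control of week 8, Ccn1, Ccn2 and Smoc2 were lower. No member passed the limma test as higher in these 3 comparisons, in which 5.43%, 5.39% and 2.56% of all probe sets did, and at an unadjusted p under 0.05 the numbers higher were 1, 1 and 0 of 10, beside 17.6%, 17.3% and 15.1% of all probe sets. The comparisons of weeks 6 and 8 with control week 1 share their 3 control arrays.

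In counts, 5 of 10 members passed as lower at UV week 6, where 6.3% of all tested probe sets did, and 5 of 10 at UV week 8, where 6.73% did (limma over all 40540 probe sets, adjusted p of at most 0.05). Against control week 8 the count was 3 of 10, beside 4.3% of all probe sets. Leaving out 1 array at a time moved these counts to between 2 and 7, 1 and 7, and 1 and 6, with the lowest without array 13, without array 13 or 555, and without array 555. A fit to the compared groups alone gave 3, 0 and 0. The shares of all probe sets called in these refits are not given here. Their counts thus do not show whether the members changed more than other probe sets did. The study had itself picked Ccn1, Thbs1, Sparc, Smoc2, Tgfbi and Fn1 as lower from these same arrays, so their direction is no independent evidence. With 1 probe set per gene over 17403 genes, the shares of genes called lower were 7.65%, 8.35% and 5.29% in the 3 comparisons. The members had a median log2 fold change of -0.95, -0.76 and -0.58 in the same 3 comparisons, while that of all tested probe sets was 0.08, 0.09 and 0.09. With a 2-fold change required as well, 5, 3 and 3 members remained lower, where 1.87%, 2.49% and 1.6% of all probe sets passed. The UV arrays lay wholly below the control arrays in 4 members at UV week 6, in 7 at UV week 8 and in 6 against control week 8, which was so for 13.6%, 8.33% and 9.82% of all probe sets. The precision of every value is limited by the 3 arrays per group. The p-values rest on a spread within groups that limma estimated from all 21 arrays, those of groups not compared included.

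**Figure D1:**
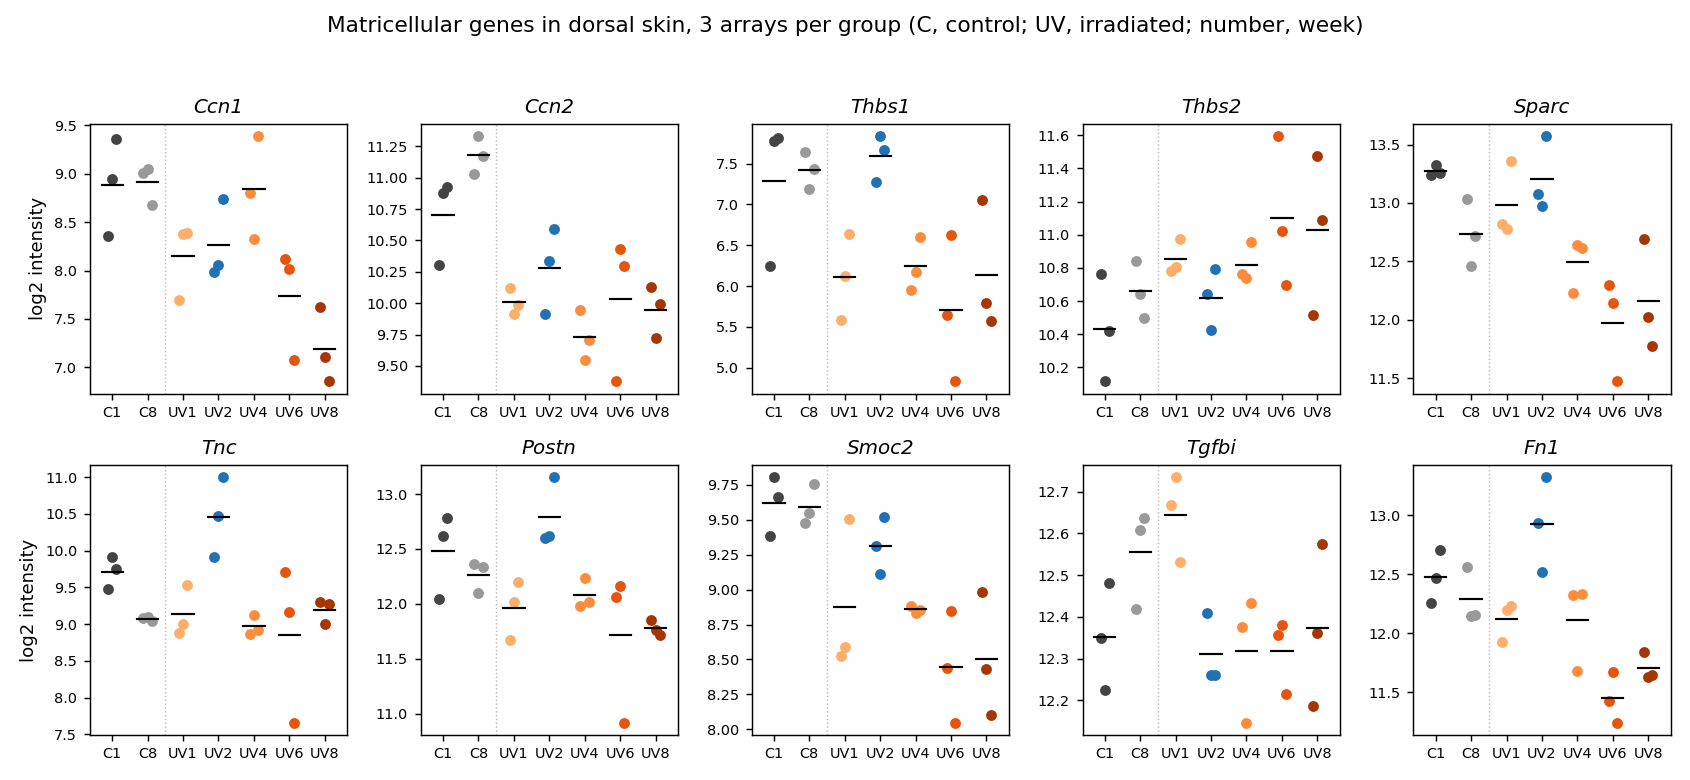
Log2 intensity of the 10 matricellular genes (vertical axis, 1 panel per gene, each with its own scale) in the 7 groups, with 1 point per array and a bar at the group mean. In Ccn1, Ccn2, Sparc, Tnc, Postn, Smoc2 and Fn1 the 3 arrays of UV week 8 lie below the 3 of control week 1, while in Thbs1, Tnc, Postn and Fn1 the highest group mean is that of UV week 2.

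Ccn1 encodes a secreted protein that binds integrins and is induced rapidly by growth factors. It had the largest fall of the members at UV week 8. Its 3 control arrays of week 1 read 8.36, 8.94 and 9.36 and those of control week 8 read 9.0, 9.05 and 8.68. At UV week 6 the arrays read 8.12, 8.02 and 7.07 and at UV week 8 they read 7.62, 7.11 and 6.86. Every array of both late groups lay below every control array. The mean was 8.89 ± 0.51 (SD, n = 3) in control week 1 and 7.20 ± 0.39 (SD, n = 3) at UV week 8, a log2 fold change of -1.69 (SE 0.33, limma adjusted p = 0.0044). Against control week 8 it was -1.72 (SE 0.33, limma adjusted p = 0.00835), and at UV week 6 it was -1.15 (SE 0.33, limma adjusted p = 0.0322). The path down was not even. The UV week 4 arrays, at 8.80, 8.33 and 9.39, overlapped the controls, whereas UV weeks 1 and 2 had intermediate means. From the highest group mean to the lowest the order was control week 8, control week 1, UV week 4, UV week 2, UV week 1, UV week 6 and UV week 8, and the arrays of all neighbors in that order overlapped. The UV week 8 difference from control week 1 passed without any 1 of the 6 arrays. The UV week 6 call was lost without array 13, 16 or 445, and the call against control week 8 was lost without array 555 (limma adjusted p = 0.0597).

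The other 3 Ccn1 probe sets had log2 fold changes of -1.16, -0.75 and -1.38 at UV week 8, of which the first passed the test. The probe set read here carries the suffix x, which Affymetrix gives where some probes also match other transcripts. The members' promoters in RefSeq's table were searched for the letters of 6 motifs on both strands over the 250 bases before the start site. The table holds 6 of the 10 members, and Ccn2, Thbs1, Smoc2 and Fn1 are not among them. The Ccn1 promoter (chr3:145649986-145650235 of GRCm38.p6, minus strand, written 5′ to 3′) is shown because Ccn1 is a textbook TEAD target, with capitals at the motif matches:
Ccn1 promoter: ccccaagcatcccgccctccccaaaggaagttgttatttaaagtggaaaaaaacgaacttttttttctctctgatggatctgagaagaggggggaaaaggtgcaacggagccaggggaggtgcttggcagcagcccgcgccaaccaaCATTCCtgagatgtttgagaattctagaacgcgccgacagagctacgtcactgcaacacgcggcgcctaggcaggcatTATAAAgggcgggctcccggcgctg
The first match, at bases -103 to -98 from the start site, reads as the TEAD motif GGAATG on the opposite strand, and the second is the TATA box TATAAA at -25 to -20. Of 32851 promoters of the same length, 12.6% hold the TEAD letters and 12.4% the TATA letters. No other promoter entry of a member held the TEAD letters.

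Ccn2, or connective tissue growth factor, is a cofactor of TGF-beta in matrix production. The control week 1 arrays read 10.30, 10.88 and 10.93 and those of control week 8 were higher, at 11.03, 11.33 and 11.18. The UV week 8 arrays read 10.13, 9.72 and 9.99, below every control array. The log2 fold change at UV week 8 was -0.76 (SE 0.24, limma adjusted p = 0.0452) against control week 1 and -1.23 (SE 0.24, limma adjusted p = 0.0085) against control week 8. All UV groups had lower means than both controls. The 3 arrays of UV week 1, at 10.12, 9.91 and 9.99, and the 3 of UV week 4, at 9.94, 9.55 and 9.71, also lay below the controls, with log2 fold changes of -0.70 (limma adjusted p = 0.169) and -0.97 (limma adjusted p = 0.0535) that missed the threshold. Arrays of UV week 6, at 9.38, 10.43 and 10.30, overlapped control week 1. In order of group means, control week 8 stood apart from control week 1 without overlap, and UV weeks 2, 6, 1, 8 and 4 followed with overlap between neighbors. The call against control week 8 held without any 1 of the 6 arrays, but that against control week 1 was lost without array 13, 16, 552 or 555.

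Smoc2, a calcium-binding relative of Sparc, was the third member lower against both controls. Its control arrays read 9.39, 9.80 and 9.66 at week 1 and 9.48, 9.55 and 9.75 at week 8. Arrays of UV week 6 read 8.44, 8.84 and 8.05 and those of UV week 8 read 8.99, 8.43 and 8.10, all below the 6 control arrays. The log2 fold change was -1.18 (SE 0.25, limma adjusted p = 0.00868) at UV week 6, -1.11 (SE 0.25, limma adjusted p = 0.01) at UV week 8 and -1.09 (SE 0.25, limma adjusted p = 0.019) against control week 8. The UV week 4 arrays were close together, at 8.89, 8.84 and 8.86, below the controls but short of the threshold. By group mean the order was control week 1, control week 8, UV weeks 2, 1, 4, 8 and 6, with overlap between all neighbors. A second probe set of Smoc2 read +0.06 on the log2 scale at UV week 8 (limma adjusted p = 0.825), so the fall rests on 1 of its 2 probe sets. That second probe set was dim, with intensities of 44.0 to 72.8 where array medians were 30.1 to 33.3. The UV week 6 call was lost without array 13, the UV week 8 call without array 13 or 555, and the call against control week 8 without array 53, 55, 552 or 555.

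Sparc, also called osteonectin, binds collagen and takes part in fibril assembly. Its 3 control week 1 arrays were close together, at 13.24, 13.32 and 13.26. Those of control week 8 were lower, at 13.04, 12.46 and 12.71. Those of UV week 6 read 12.30, 12.14 and 11.47 and the UV week 8 arrays 12.69, 12.02 and 11.78. The late UV groups lay wholly below control week 1, and UV week 6 also below control week 8, whereas array 551 of UV week 8 lay among the week 8 controls. The log2 fold change was -1.30 (SE 0.25, limma adjusted p = 0.00511) at UV week 6 and -1.11 (SE 0.25, limma adjusted p = 0.01) at UV week 8, but -0.57 (SE 0.25, limma adjusted p = 0.146) against the age-matched control. The controls themselves differed by -0.54 on the log2 scale between weeks 8 and 1 (limma adjusted p = 0.963). The group means ran from control week 1 through UV week 2, UV week 1, control week 8, UV week 4 and UV week 8 to UV week 6, with overlap between all neighbors. The UV week 6 call held without any 1 of its 6 arrays, and the UV week 8 call was lost without array 13 or 555.

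The other Sparc probe sets went apart. One read 10.31, 11.77 and 10.73 in control week 1 and 10.55, 7.22 and 7.05 at UV week 8, a log2 fold change of -2.66 (SE 0.81, limma adjusted p = 0.041). The 2 low arrays were 552 and 555, those with beta-actin ratios of 5.14 and 4.9, whereas array 551 had a ratio of 2.77. The last probe set read +0.44 (limma adjusted p = 0.168). It was dim, with intensities of 48.6 to 101.2 where array medians were 30.1 to 33.3. The Sparc promoter (chr11:55420081-55420330 of GRCm38.p6, minus strand, 5′ to 3′) is shown beside that of Ccn1 as the other member in the table that fell at both late weeks, with the match in capitals:
Sparc promoter: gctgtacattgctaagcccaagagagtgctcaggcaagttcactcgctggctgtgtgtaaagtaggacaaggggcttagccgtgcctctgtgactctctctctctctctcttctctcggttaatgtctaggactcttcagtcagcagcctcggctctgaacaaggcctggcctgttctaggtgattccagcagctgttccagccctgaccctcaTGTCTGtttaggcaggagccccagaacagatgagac
The match, at bases -36 to -31, is the short SMAD motif CAGACA read on the opposite strand, which 17.1% of the 32851 promoters hold. Among the 8 promoter entries of the 6 members, Thbs2 held it at 2 places and an alternative start of Tnc at 1. The letters of the AP-1 motif TGAGTCA (in 4.46% of all promoters), the SMAD palindrome GTCTAGAC (0.167%) and the CArG box bound by SRF (1.47%) were in none of these entries.

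Fibronectin, encoded by Fn1, binds both collagen and integrins. The control arrays of Fn1 read 12.26, 12.47 and 12.71 at week 1 and 12.56, 12.14 and 12.16 at week 8. At UV week 6 they read 11.43, 11.67 and 11.24 and the UV week 8 arrays 11.84, 11.63 and 11.65. Both late groups lay below all 6 control arrays. The log2 fold change was -1.03 (SE 0.21, limma adjusted p = 0.00645) at UV week 6, -0.77 (SE 0.21, limma adjusted p = 0.024) at UV week 8 and -0.58 (SE 0.21, limma adjusted p = 0.0855) against control week 8. UV week 2 was the highest group, at 12.93, 12.52 and 13.32, followed by control week 1, control week 8, UV weeks 1, 4, 8 and 6, with overlap between all neighbors. The other Fn1 probe set gave -0.92 at UV week 6 and -0.75 at UV week 8, both past the threshold (limma adjusted p = 0.0217 and 0.0478), and -0.01 against control week 8. That probe set was dim, with intensities of 9.14 to 27.4, below the array medians of 30.1 to 33.3. Its controls differed by -0.73 between weeks 8 and 1 (limma adjusted p = 0.565). At the brighter probe set the UV week 6 call held without any 1 array, and the UV week 8 call was lost without array 13, 16, 552 or 555.

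Thbs1, or thrombospondin-1, inhibits blood vessel growth and activates latent TGF-beta. It varied more between arrays than the members above. Control week 1 read 6.25, 7.78 and 7.82, control week 8 read 7.64, 7.18 and 7.44, UV week 2 read 7.27, 7.83 and 7.67, and UV week 6 read 5.64, 6.62 and 4.83. The fall at UV week 6 was -1.58 on the log2 scale (SE 0.45, limma adjusted p = 0.0331) although array 443 lay above array 12 of the controls, and it was lost without array 13, 16, 441 or 445. At UV week 8 the arrays read 7.05, 5.79 and 5.58, which gave -1.14 (SE 0.45, limma adjusted p = 0.1) against control week 1 and -1.28 (SE 0.45, limma adjusted p = 0.0857) against control week 8, below all 3 arrays of the latter. Its second probe set gave -0.32 at UV week 6 (limma adjusted p = 0.418), at low intensities of 10.9 to 32.0 where array medians were 30.1 to 33.3. The UV week 2, control week 8 and control week 1 groups had the highest means, followed by UV weeks 4, 8, 1 and 6, with overlap between all neighbors.

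Thbs2, the close relative whose loss in mice disturbs collagen fibrils, did not pass in any direction. Its control arrays ran from 10.12 to 10.77 at week 1 and from 10.50 to 10.84 at week 8. The UV week 6 arrays ran from 10.69 to 11.60 and those of UV week 8 from 10.51 to 11.48, which overlapped both. The log2 fold change was +0.67 at UV week 6 (SE 0.23, limma adjusted p = 0.0621) and +0.59 at UV week 8 (SE 0.23, limma adjusted p = 0.0912). The 3 probe sets of Thbs2 did not point one way, with +0.59, +0.19 and -0.75 at UV week 8, none of which passed. The brightest of them, read here, carries the suffix x, as in Ccn1. The one at -0.75 gave -0.97 against control week 8 (limma adjusted p = 0.0502). Its UV week 8 arrays lay below those of both controls. Group means ran from UV week 6 through UV weeks 8, 1 and 4, control week 8 and UV week 2 to control week 1, with overlap between all neighbors.

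**Figure D2:**
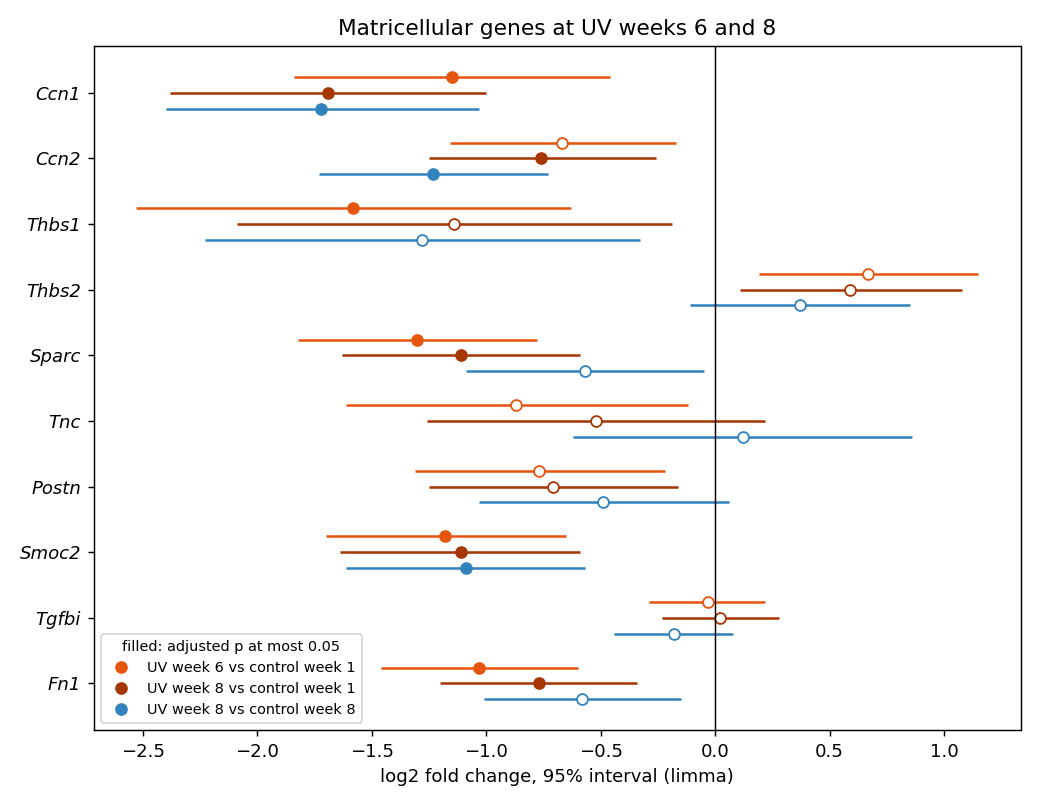
Log2 fold change with its 95% interval (horizontal axis, limma) of each matricellular gene at UV week 6 and UV week 8 against control week 1 and at UV week 8 against control week 8. Filled points passed at an adjusted p of at most 0.05: 5, 5 and 3 of the 10 genes, all of them below 0.

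Tnc and Postn encode tenascin-C and periostin, which bind integrins and are laid down in healing wounds. Both had the highest group mean at UV week 2 and neither passed against a control at UV weeks 6 or 8. Tnc read 9.47, 9.91 and 9.75 in control week 1, 9.08, 9.09 and 9.05 in control week 8, 9.91, 10.46 and 10.99 at UV week 2, 9.71, 9.16 and 7.66 at UV week 6 and 9.31, 9.0 and 9.27 at UV week 8. It was the only one of the 10 members whose controls differed by 1.5-fold or more, with -0.64 on the log2 scale (limma adjusted p = 1.0). The difference at UV week 8 was -0.52 on the log2 scale (SE 0.35, limma adjusted p = 0.318). The second probe set of Tnc read 5.43, 5.81 and 6.25 in control week 1 and 4.86, 3.84 and 4.23 at UV week 8, with -1.52 on the log2 scale (SE 0.29, limma adjusted p = 0.00425), and -1.01 against control week 8 (limma adjusted p = 0.0465). Intensities of this probe set were low, from 14.3 to 76.1 where array medians were 30.1 to 33.3. By the probe set that stands for the gene, the order was UV week 2, control week 1, UV week 8, UV week 1, control week 8, UV week 4 and UV week 6. Neighbors in that order overlapped, except control week 1 and UV week 8.

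Postn read 12.05, 12.62 and 12.79 in control week 1 and 12.36, 12.10 and 12.34 in control week 8. It read 12.60, 12.62 and 13.15 at UV week 2, 12.06, 12.16 and 10.92 at UV week 6 and 11.85, 11.77 and 11.71 at UV week 8. The UV week 8 arrays were close together and lay below all 6 controls. The log2 fold change was -0.71 (SE 0.26, limma adjusted p = 0.0785) at UV week 8 and -0.77 (SE 0.26, limma adjusted p = 0.0595) at UV week 6. Postn has a single probe set. Its order was UV week 2, control week 1, control week 8 and UV weeks 4, 1, 8 and 6, and all neighbors overlapped.

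Tgfbi, named for its induction by TGF-beta, binds collagen and integrins. At the probe set of highest mean its arrays ran from 12.22 to 12.48 in control week 1, from 12.42 to 12.64 in control week 8 and from 12.19 to 12.57 at UV week 8, and the log2 fold change at UV week 8 was +0.02 (95% interval -0.23 to 0.28, limma adjusted p = 0.915). Its group means ran from UV week 1 and control week 8 through UV week 8 and control week 1 to UV weeks 4, 6 and 2, with overlap between all neighbors. A second x-suffixed probe set also gave +0.02. The other 2 fell. One read 12.27, 12.61 and 12.82 in control week 1 and 12.12, 11.74 and 11.99 at UV week 8, with -0.62 on the log2 scale (SE 0.16, limma adjusted p = 0.0202), and the other gave -1.36 (SE 0.37, limma adjusted p = 0.0274). Against control week 8 these gave -0.76 (limma adjusted p = 0.0134) and -1.55 (limma adjusted p = 0.0232). Of the 4 probe sets of Tgfbi, the 2 that fell are thus not the brightest one, by which the gene is counted here as not passing.

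**Figure D3:**
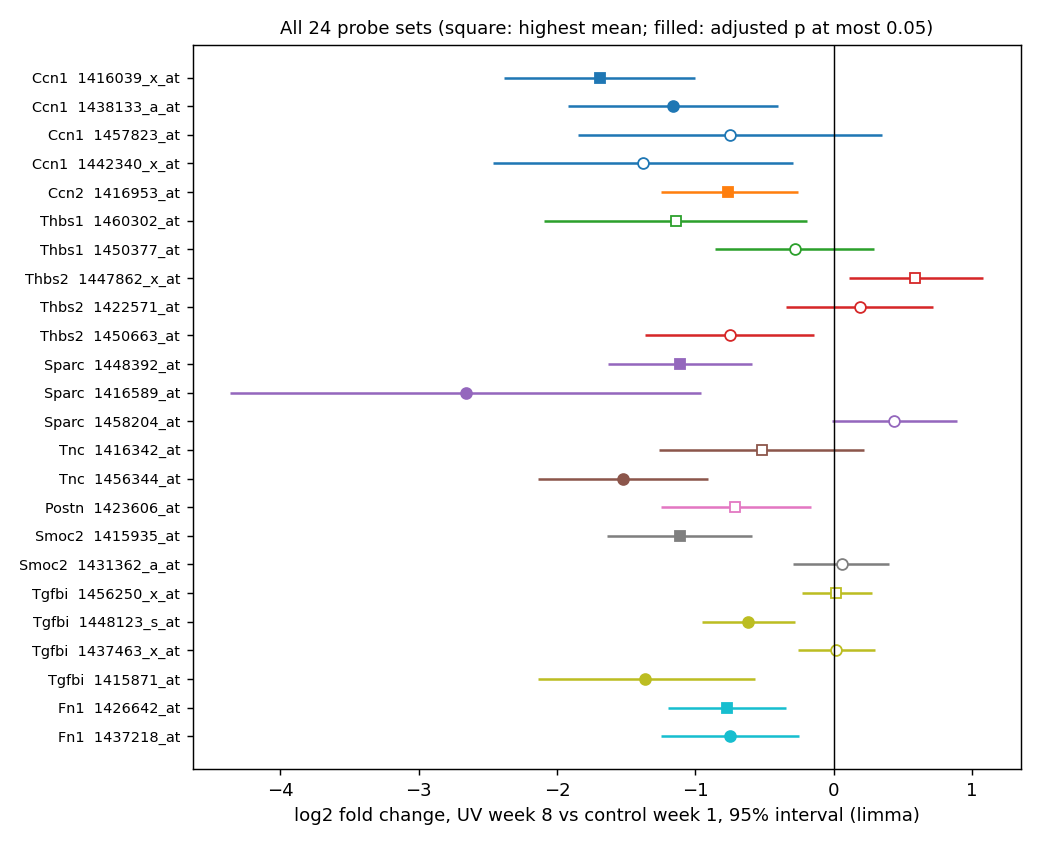
Log2 fold change at UV week 8 against control week 1 with its 95% interval (horizontal axis, limma) for all 24 probe sets of the 10 genes, with squares for the probe set of highest mean. Filled symbols passed as lower, 11 of the 24, and none passed as higher.

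Over the 24 probe sets, 9 passed as lower at UV week 6, 11 at UV week 8 and 6 against control week 8. Of the 5 members called at UV week 8, Fn1 had both probe sets past the threshold, Ccn1 had 2 of 4, Sparc 2 of 3 and Smoc2 1 of 2, and Ccn2 has 1 alone. The dimmer probe set of Fn1 read below the array median on every array.

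In Thbs1, Tnc, Postn and Fn1 the group mean was highest at UV week 2. None of them passed there against control week 1, UV week 1 or UV week 4. Against control week 1, no member passed as lower at UV week 1 (0.0123% of all probe sets did), UV week 2 (0.0296%) or UV week 4 (0.772%), nor between the controls (0.0296%), and none passed as higher. At an unadjusted p under 0.05, 4 members were lower and 1 higher at UV week 1 (9.38% and 9.88% of all probe sets), 0 and 2 at UV week 2 (3.37% and 2.96%), 4 and 0 at UV week 4 (6.65% and 5.3%) and 1 and 0 between the controls (2.62% and 2.39%). From UV week 1 to UV week 2, Thbs1, Tnc, Postn and Fn1 had log2 fold changes of +1.48, +1.31, +0.83 and +0.81 with arrays that did not overlap, each at a limma adjusted p of 0.178, where 12% of all probe sets were higher without overlap. The mean beta-actin ratio went from 3.99 at UV week 1, with arrays 112 and 114 at 4.88 and 4.39, to 2.85 at UV week 2, and with this ratio as a covariate no member passed between these weeks either. From UV week 2 to UV week 4 these 4 genes gave -1.35, -1.49, -0.71 and -0.81 (limma adjusted p = 0.637, 0.262, 0.691 and 0.333).

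No member passed from one UV week to the next. The shares of all probe sets called lower by limma were 0.00247% from week 1 to 2, 0% from week 2 to 4, 0.00493% from week 4 to 6 and 0% from week 6 to 8. At an unadjusted p under 0.05 the members lower and higher were 1 and 4 from week 1 to 2 (11.1% and 11% of all probe sets), 6 and 0 from week 2 to 4 (2.77% and 3.15%), 3 and 0 from week 4 to 6 (5.48% and 6.99%) and 0 and 0 from week 6 to 8 (2.16% and 2.26%).

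Comparisons of the late weeks with UV week 2, and of UV week 8 with UV week 6, were added after the values were seen. Thbs1, Sparc, Tnc, Postn and Fn1 passed as lower at UV week 6 than at UV week 2, where 2.44% of all probe sets did, and Sparc, Postn and Fn1 at UV week 8, where 1.42% did. The largest of these was Thbs1 at -1.89 (SE 0.45, limma adjusted p = 0.0335), and the most precise was Fn1 at -1.48 (SE 0.21, limma adjusted p = 0.00591). Without single arrays the counts ran from 1 to 6 at UV week 6 and from 0 to 7 at UV week 8. Fn1 alone was left at UV week 6 without array 222, 225 or 445. The shares of all probe sets in these refits are not given here. The UV effect at week 8, against its own control, did not differ by the test from that at week 1 in any member, where 0% of all probe sets were lower, and at an unadjusted p under 0.05 it was lower in 2 members, Ccn1 and Tgfbi, and higher in 0 (1.84% and 2.32% of all probe sets).

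RNA quality differed between the groups. The Gapdh 3'/5' log2 ratio, a second such measure, was 5.98, 4.85 and 6.21 on the arrays of control week 8. It was 6.95, 3.66 and 2.79 in control week 1, and 2.37, 6.09 and 5.93 on arrays 551, 552 and 555 of UV week 8. The mean beta-actin ratio was 3.22 ± 1.32 (SD, n = 3) in control week 1 and 3.33 ± 0.2 in control week 8. Among the UV groups it was 3.99 ± 1.14 in week 1, 2.85 ± 0.53 in week 2, 3.46 ± 0.55 in week 4, 3.86 ± 1.39 in week 6 and 4.27 ± 1.3 in week 8. With this ratio as a covariate the same 5 members passed at UV week 6 and 4 at UV week 8, where Ccn1 read -1.37, Sparc -0.93, Smoc2 -0.84 and Fn1 -0.64 on the log2 scale, while Ccn2, at -0.61, had a limma adjusted p of 0.0898. Without the 8 arrays above a ratio of 4, a choice made after the values were seen, the counts in the 3 late comparisons were 3, 1 and 0, with 1 array left at each of the 2 late weeks, and the spread of a lone array is then taken from the rest. In that fit Ccn1 read -1.29 and Ccn2 -1.05 against control week 8. Array 551, left alone at UV week 8, was closer to the control week 8 mean in other members. It read 8.99 beside a mean of 9.59 in Smoc2, 12.688 beside 12.735 in Sparc and 11.84 beside 12.29 in Fn1. The shares of all probe sets called in these refits are not given here, so their counts cannot be set against other probe sets.

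**Figure D4:**
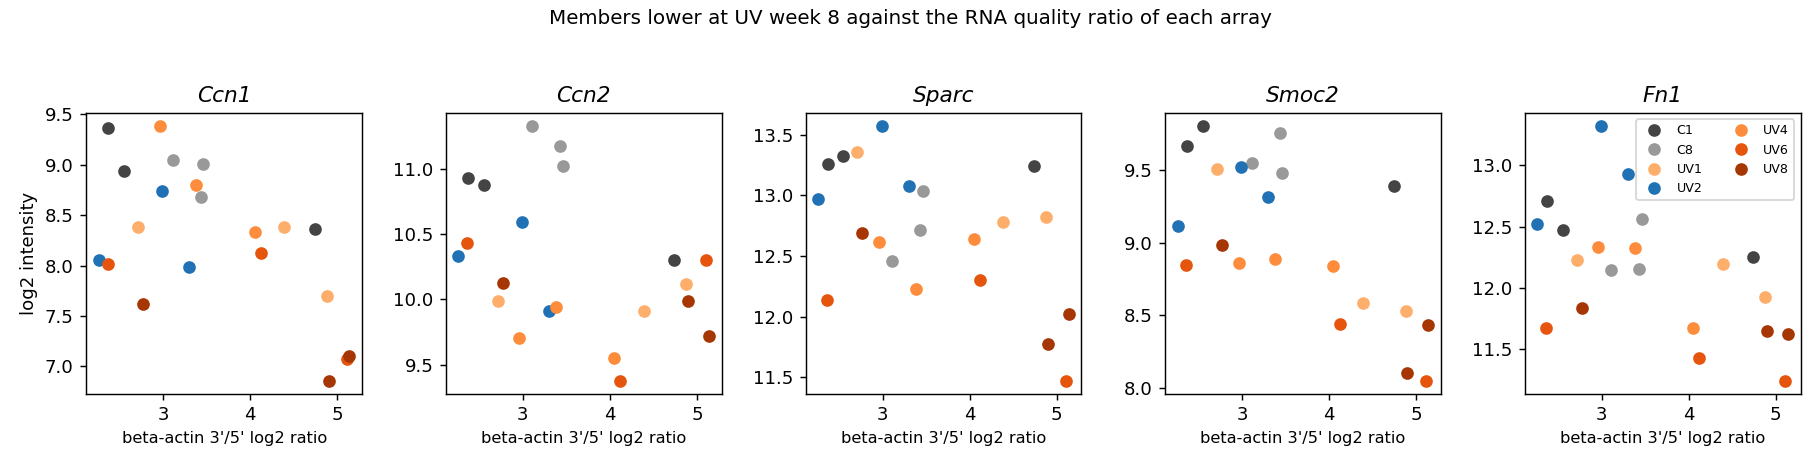
Log2 intensity (vertical axis) of the 5 genes called lower at UV week 8 against the beta-actin 3'/5' log2 ratio of the same array (horizontal axis), with 1 point per array and the groups in colors. Within UV week 8, array 551 at a ratio of 2.77 is the highest array in each of the 5 panels.

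Other genes of the same biology were counted from lists. Of the listed genes named here and among the cell type markers, the study had itself picked Axl, Ccdc80, Cd47, Fstl1 and Lum as lower. It did so from these same arrays, so their direction is no independent evidence. Of all tested probe sets, 6.73% passed as lower and 5.39% as higher at UV week 8. Of 15 other matricellular genes measured, 3 passed as lower at UV week 8 and none as higher, with a median log2 fold change of -0.26: Sparcl1, a Sparc relative, at -0.86, Ccn4, a Ccn family member, at -0.78 and Smoc1 at -0.75. Tnxb read -1.09 without passing (limma adjusted p = 0.0833). At UV week 6, 1 of the 15 was lower, Fstl1 at -0.53, and 1 higher, Ccn6 at +0.44. These counts were near the 6.3% lower and 5.43% higher of all probe sets.

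Of 17 receptors, 2 passed as lower at UV week 8, Cd47 at -0.91 and Cd36 at -0.70, both of which bind thrombospondins. Itgb8, the integrin subunit that activates latent TGF-beta, was higher at +0.90 (limma adjusted p = 0.000945). The median of the receptors was -0.06. At UV week 8, 6.73% of all probe sets were lower and 5.39% higher. Of 20 YAP/TAZ-TEAD targets other than Ccn1 and Ccn2, 6 were lower and none higher at UV week 8, with a median of -0.33: Igfbp3, Axl, Ccdc80, F3, Amotl2 and Gadd45a, from -1.48 to -0.75. Against control week 8 the count was also 6, where 4.3% of all probe sets were lower. Of 13 TGF-beta responsive genes, 3 were lower (Col1a1 at -1.69, Ski at -0.96 and Smad7 at -0.77) and Ltbp2 was higher at +0.97, with a median of -0.29. Against control week 8, 1 of the 13 was lower and 1 higher, beside 4.3% and 2.56% of all probe sets. Ski and Smad7 encode inhibitors of that pathway.

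Markers of cell types were counted in the same way. Of all probe sets, 6.73% were lower at UV week 8 and 4.3% against control week 8. Of 11 dermal fibroblast markers, 3 were lower at UV week 8, Dcn, Col1a1 and Lum, with a median of -0.42, and the other 8 did not pass. Among those 8, Pdgfrb read +0.55 (limma adjusted p = 0.0927), Fap +0.08 and Twist2 -0.09, and the rest were also below 0. Against control week 8, 2 of the 11 were lower, with a median of -0.4. The summed intensity of the 11 markers ranged from 75185 to 84774 in control week 1 and from 67375 to 89758 in control week 8. At UV week 4, where no member passed, it was already below both, from 54753 to 62002. It ranged from 39516 to 60833 at UV week 6 and from 49529 to 61997 at UV week 8. This linear sum gives most weight to the brightest markers, such as Col3a1. Of 14 hair follicle markers 11 were lower at UV week 8 (median -3.43), of 9 skeletal muscle markers 7 (median -1.46) and of 6 adipocyte markers 4 (median -1.10). Against control week 8 the counts were 5 of 14 (median -1.96), 4 of 9 (-1.11) and 1 of 6 (-0.56), and between the controls the hair follicle markers had a median of -1.36, with 1 of 14 lower. The muscle sum ranged from 69337 to 84676 in control week 1 and from 28627 to 43814 at UV week 8. Among basal keratinocyte, endothelial and smooth muscle or pericyte markers 2 of 8 (Krt15 and Trp63), 2 of 8 (Cdh5 and Kdr) and 1 of 7 (Des) were lower, and none of 8 suprabasal keratinocyte and 8 macrophage markers passed the limma test. At an unadjusted p under 0.05, no suprabasal marker and 2 macrophage markers, Mrc1 and Cd163, were lower. The part of cell composition in the values of the members was not tested.

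The genes whose pattern over the 21 arrays was most like that of each member were taken by Pearson's r among 17393 genes, each at its brightest probe set. The nearest was Tead1 for Smoc2 (r = 0.961), Axl for Thbs1 (0.948), Igfbp4 for Sparc (0.946), Tbl1x for Postn (0.915) and Zfp36l1 for Ccn1 (0.912). For the other members it was Adamts5 for Fn1 (0.891), Capza1 for Thbs2 (0.883), Msrb3 for Ccn2 (0.864), Svep1 for Tnc (0.859) and Tbc1d15 for Tgfbi (0.808). All these values share the same arrays, groups and RNA quality and describe likeness alone.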

How the data were processed

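Total RNA of mouse skin was hybridized by the authors to 21 Affymetrix Mouse Genome arrays, 3 in each of 7 groups taken from the sample labels. The deposited values are probe set intensity on a linear scale, which the authors had summarized and normalized before. Expression Console with a Microarray Suite 5 preprocessor is named in their Methods and RMA in the submitters' notes, and which of these made the values stays unknown. Array medians ran from 30.1 to 33.3. Scanner files and detection calls were not used here.

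Values under 1 were set to 1 before the log2 transformation. Tested were all probe sets that reached the 20th percentile of some array, without 64 control probe sets. A mean per group was estimated from all arrays with limma 3.58.1 (lmFit, eBayes) in R 4.3.3, and the Benjamini-Hochberg adjustment covered the 40540 probe sets of a comparison. An adjusted p of at most 0.05 counted as passing. Requiring a 2-fold change as well, and leaving out genes that differ 1.5-fold between the controls, both taken from the paper, were alternatives. So were no filter, quantile normalization, equal array medians, the mean of all probe sets of a gene, the compared groups alone, each array left out, the mean of both controls, and the beta-actin or Gapdh 3'/5' ratio as a covariate. The fit was also run on simulated data with independent noise in each probe set. These hold no differences in RNA quality, so the run says nothing about the arrays of high beta-actin ratio.

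The members, gene lists and named genes were chosen with earlier results of these data known. All 10 members are named, with the nearest pattern of each member. The genes named from a list were not all taken by the same rule. Some passed at UV week 8, some at UV week 6 or at an unadjusted p, and some show the size or direction of a change. Gene names are those of the platform annotation, in which 32317 tested probe sets have 1 symbol, 853 have several and 7370 have none. Of the listed genes, 6 have no tested probe set here. Promoter sequences are from RefSeq (GRCm38.p6). Python 3.11.15, matplotlib 3.10.9, pandas 2.3.3 and numpy 2.4.6 were used for the plots.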

Additional observations from a re-analysis of the deposited data

Results flagged for a closer look

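Several matricellular genes differed between UV-exposed skin of week 2 and of the late weeks, by limma's test of that difference over all probe sets, with contrasts chosen after the values were seen. No control of week 2 or week 6 was used here, so time and exposure cannot be told apart in them. Between the controls of weeks 8 and 1, Sparc differed by -0.54 and Tnc by -0.64. Between UV week 6 and UV week 2 the log2 difference was -1.89 (SE 0.45, limma adjusted p = 0.0335) in Thbs1, -1.61 (SE 0.35, limma adjusted p = 0.0259) in Tnc, -1.48 (SE 0.21, limma adjusted p = 0.00591) in Fn1, -1.24 (SE 0.25, limma adjusted p = 0.0201) in Sparc and -1.08 (SE 0.26, limma adjusted p = 0.0339) in Postn. In each of these 5 genes the 3 arrays of UV week 6 lay below the 3 of UV week 2. Between UV week 8 and UV week 2 it was -1.22 (SE 0.21, limma adjusted p = 0.0116) in Fn1, -1.04 (SE 0.25, limma adjusted p = 0.0403) in Sparc and -1.02 (SE 0.26, limma adjusted p = 0.0477) in Postn, again without overlap. Calls were lost without single arrays, of the 6 compared, in 5 fits each for Thbs1 at UV week 6, Sparc at UV week 8 and Postn at both weeks, in 4 for Tnc at UV week 6 and Fn1 at UV week 8, in 3 for Sparc at UV week 6 and in 0 for Fn1 at UV week 6. Each of the arrays 222, 224, 225, 441, 445, 552 and 555 ended at least 1 of these calls. Without array 445, the UV week 6 value of Tnc was -1.02 (limma adjusted p = 0.0727) and that of Postn was -0.68 (limma adjusted p = 0.119). The mean beta-actin ratio was lowest in the UV week 2 group, 2.85 ± 0.53 (SD, n = 3), and highest at UV week 8, 4.27 ± 1.3. With this ratio as a covariate all 5 genes still passed at UV week 6 and Fn1 alone at UV week 8. Without the 8 arrays of high ratio Fn1 at UV week 6 alone passed, with 1 array left at each late week. With only the compared groups in the fit, Thbs1, Sparc and Fn1 passed at UV week 6 and none of the 3 at UV week 8. The shares of all probe sets passing in these refits are not given here.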

How the results depend on the processing

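The counts of members lower against the controls kept within 1.5 times under no filter, equal array medians and quantile normalization, the last of which gave 4, 4 and 3 at UV week 6, UV week 8 and against control week 8. With a 2-fold change required as well, 3 members were lower at UV week 8. In a fit to the compared groups alone, which has fewer arrays to estimate the spread, the counts were 3 at UV week 6, 0 at UV week 8 and 0 against control week 8. At UV week 4, where no member passed, the mean of all probe sets of a gene gave 1 (Ccn2), the beta-actin and the Gapdh ratio as covariates 3 each, and the mean of both controls 1. The mean of both controls also gave 1 (Ccn2) at UV week 1. The Gapdh covariate gave 5 against control week 8. Over the late comparisons, those with UV week 2 included, that covariate gained 8 calls and lost 1. Without the 8 arrays of high beta-actin ratio, chosen after seeing the data, so that a lone array stands for UV week 6 and for UV week 8 and its spread is taken from the other groups, UV week 4 had 5, UV week 6 had 3, UV week 8 had 1 and the comparison with control week 8 had 0. Under the mean of all probe sets Tgfbi turned from +0.02 to -0.48 (limma adjusted p = 0.033) at UV week 8, since 2 of its 4 probe sets fell. Over the 5 comparisons of the late weeks, those with UV week 2 included, this setting lost 7 calls (Thbs1 at UV week 6 and Smoc2 against control week 8, the others against UV week 2) and gained 3. Apart from those stated, the cause was not tested. The shares of all probe sets called under these alternative settings are not given here. The counts thus do not show whether the members changed more than other probe sets did.

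Leaving out each array in turn gave 0 to 1 members at UV weeks 1 and 4, 2 to 7 at UV week 6, 1 to 7 at UV week 8, 1 to 6 against control week 8, and 0 in the other comparisons with or between controls and between successive weeks. The lowest counts came without array 13 at UV week 6, without array 13 or 555 at UV week 8 and without array 555 against control week 8. The shares of all probe sets called in these refits are not given here either. No paired analysis was possible because no number in the labels occurs in more than 1 group.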
